A study of Homo sapiens with 6 samples.

Results

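Short hairpin knockdown of YAP was compared with NC cells in HCT116, an established human colorectal carcinoma line, over control medium and glucose deprivation together. All 6 libraries of the series entered the comparison. The NC cells, given as wild type in the labels, had 1 library in control medium and 1 library after 6 h without glucose, and the cells labelled YAP knockdown had 4, from the hairpin lines shYAP1 and shYAP3 in each of the same media. A gene was tested where its value reached 1 in at least 2 libraries, which kept 12263 of 14987 listed genes, and a difference is described as having one sign where both hairpins lay on the same side of NC in both media. No replicate culture of a line in a medium is named by the labels, so p-values measure only the spread between these libraries. In the fit over both media that spread holds differences between the hairpins and between the knockdown effects in each medium, and part may be technical. A knockdown effect that differs between media therefore widens its standard error. Whether a hairpin line came from 1 clone or a pool is not given in the sources used here.

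YAP, encoded by YAP1, is a transcriptional coactivator without a DNA-binding domain of its own. When the Hippo kinases of the LATS family are inactive, YAP and its paralog TAZ enter the nucleus and join the TEAD factors at promoters and enhancers, and phosphorylation by LATS holds them in the cytoplasm. Their best known targets encode secreted matricellular proteins (CTGF, also CCN2, and CYR61, also CCN1), cytoskeletal proteins and several inhibitors of YAP itself.

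TEAD factors bind DNA at the letters GGAATG, read as CATTCC on the other strand, and the promoters of 3 genes with lower values in all 4 knockdown libraries are shown with those letters in capitals. They were picked among the genes described here because they hold the letters. The lower genes RHOBTB3, IQGAP2, DESI2, GLI2, AXL and AJUBA have none in the window searched, and the higher gene DKK1 has them once, at -50 from the start. Each line gives the 250 bases before the start of the gene, 5′ to 3′ along its own strand, from RefSeq on GRCh38.p14. The CTGF stretch lies at chr6:131951373-131951622 on the minus strand, that of COL12A1 at chr6:75206054-75206303 on the minus strand, and that of FLNC at chr7:128830156-128830405 on the plus strand.
CTGF: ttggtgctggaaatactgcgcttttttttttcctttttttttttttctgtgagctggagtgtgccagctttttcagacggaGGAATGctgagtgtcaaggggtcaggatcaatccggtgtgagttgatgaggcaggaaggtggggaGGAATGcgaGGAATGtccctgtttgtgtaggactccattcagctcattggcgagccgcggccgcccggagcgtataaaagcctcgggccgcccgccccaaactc
COL12A1: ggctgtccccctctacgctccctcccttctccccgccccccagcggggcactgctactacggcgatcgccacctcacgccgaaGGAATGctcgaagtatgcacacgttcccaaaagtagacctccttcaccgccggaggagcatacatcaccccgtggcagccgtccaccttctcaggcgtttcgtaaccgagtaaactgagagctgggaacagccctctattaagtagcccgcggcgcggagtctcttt
FLNC: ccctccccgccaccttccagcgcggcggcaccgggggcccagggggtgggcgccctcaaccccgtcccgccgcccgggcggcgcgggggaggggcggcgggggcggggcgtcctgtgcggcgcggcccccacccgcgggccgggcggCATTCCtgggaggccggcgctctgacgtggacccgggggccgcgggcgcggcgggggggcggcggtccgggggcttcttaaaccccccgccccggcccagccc
The CTGF promoter held the letters 3 times, with first letters at -169, -104 and -95 from the start. COL12A1 held them once at -167, and FLNC once at -103 in the reversed form. Over the window from 250 bases before to 50 after the start, they occurred in 10.5% of the 9817 tested genes with a RefSeq promoter and in 5 of 14 (35.7%) listed YAP and TEAD targets with one. An unadjusted limma p under 0.05 together with one sign was met by 417 lower genes (3.4% of those tested) and 439 higher genes (3.58%), of which 309 and 348 had a RefSeq promoter, and the letters occurred in 12.3% and 11.2% of these. The AP-1 letters TGANTCA, which read the same on the other strand, occurred in 4.27% of all those promoters, 4.21% of the lower genes and 6.9% of the higher genes. A match of letters is a description of the sequence and not a measured binding site.

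Values are the deposited ones, reads per gene scaled within each library and not divided by gene length, so levels are compared between libraries and never between genes. Libraries held 16912634 to 22161075 listed reads, and 1 read was worth 0.0406 to 0.0693. The labelled cell type was checked on 5 epithelial genes, EPCAM, KRT8, KRT18, CDH1 and CDX2, and all of them were present in every library, the lowest value being 5.75 for CDX2. Markers of other cell types took at most 0.00407% of the reads of a library for any of 3 lists. The listed 4 of 10 fibroblast genes summed to 6.33 to 8.23 in NC and 3.05 to 10.45 in knockdown libraries, the 9 of 13 leukocyte genes to 20.4 to 26.2 and 22.3 to 47.8, and the 5 of 9 endothelial genes to 3.83 to 4.79 and 3.81 to 8.13. Every listed gene has reads in the control NC library, so no listed marker could be at 0 in every library. Defining ones such as PTPRC, PECAM1, CDH5 and COL1A2 are not among the 14987 listed genes and could not be examined. Of the 4 leukocyte genes tested 3 (75%) were above NC in all 4 differences, beside 16.4% of all genes. These were HLA-DRA, LCP1 and CD68 (log2 differences 0.62, 0.50 and 0.49), and CORO1A had mixed signs. The other listed leukocyte genes did not reach the filter. The part of leukocyte genes in the results was not tested.

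YAP1 was the gene on which the knockdown is checked, and its RNA fell with both hairpins in both media. In control medium it stood at 188.4 in NC cells, 35.7 with shYAP1 and 38.2 with shYAP3. After deprivation the values were 153.9, 20.3 and 18.2. The knockdown libraries thus held 19.0% and 20.3% of the NC level in control medium and 13.2% and 11.8% after deprivation, with no overlap between the groups. Over both media the log2 difference on the log2(value + 1) scale was -2.63 (SE 0.17, 95% interval -3.01 to -2.25, limma adjusted p = 0.00082). Fewer cells with YAP1 RNA and less of it in each cell cannot be told apart in these bulk libraries.

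The call on YAP1 rested in part on the deprived NC library. Without that library its log2 difference was -2.32 with a limma adjusted p of 0.13. The value was -2.61 for shYAP1 (limma adjusted p = 0.00042) and -2.64 for shYAP3 (limma adjusted p = 0.00038), and the hairpins differed by -0.03 (limma adjusted p = 0.97).

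**Figure D1:**
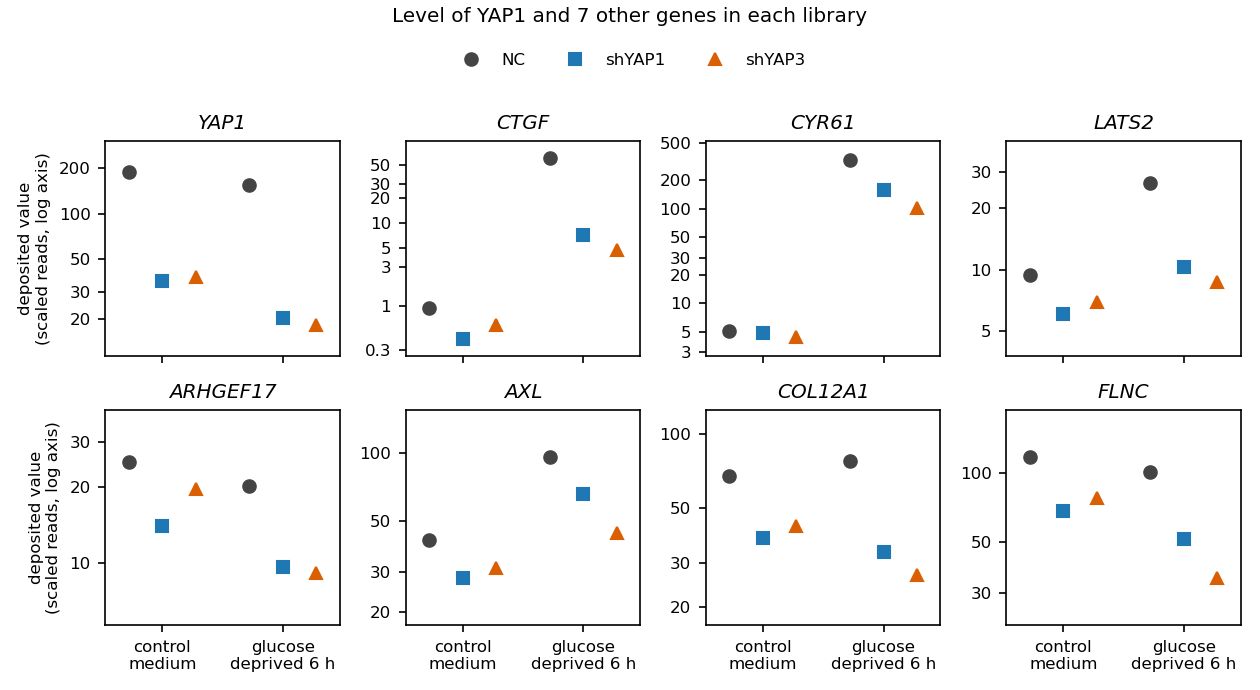
Deposited value (scaled reads, log axis) of YAP1 and 7 other genes in each of the 6 libraries, 1 point per library, by medium; circles are NC, squares shYAP1 and triangles shYAP3. YAP1 dropped from 188.4 and 153.9 in NC cells to between 18.2 and 38.2 in the knockdown libraries. The other 7 genes lay below NC in every knockdown library of the same medium, which describes only these genes, as they were picked for the figure. In control medium CYR61 was close to NC (log2 difference -0.05 with shYAP1), and CTGF rests on 10 to 22 reads.

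No gene other than YAP1 passed the test over both media. The 1 lower call was 0.00815% of the genes tested and the higher calls were 0%, and the smallest limma adjusted p of any other gene was 0.58. At an unadjusted limma p under 0.05 there were 475 higher genes (3.87%) and 423 lower genes (3.45%). The quasi-likelihood test of edgeR on recovered reads called YAP1 alone as well, with 483 higher (3.94%) and 408 lower genes (3.33%) at an unadjusted p under 0.05. DESeq2 on the same reads called 2 higher genes (0.0163%), SERPINI1 and NRP1, and 5 lower genes (0.0408%), YAP1, COL12A1, RHOBTB3, FLNC and CYP24A1, with 677 higher (5.52%) and 370 lower (3.02%) at an unadjusted p under 0.05. Without the deprived shYAP3 library limma called COL12A1, RHOBTB3, FLNC and YAP1 lower and NRP1 higher, and without the deprived NC library it called none.

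One sign in all 4 differences was found for 2007 higher genes (16.4%) and 2551 lower genes (20.8%), 4558 in all. Counts in the gene lists further on are to be read beside these shares of all genes. Both differences within a medium share 1 NC library, so the 4 signs are not independent. Without the deprived shYAP3 library one sign in the remaining 3 differences was found for 2338 higher (19.1%) and 2958 lower genes (24.1%). A difference of at least 1.5-fold in all 4, on the log2(value + 1) scale, was met by 8 lower genes (0.0652%) and 6 higher genes (0.0489%). The lower ones were YAP1, CYP24A1, COL12A1, FLNC, RHOBTB3, KRT7, UNC13D and IQGAP2, and the higher ones were NRP1, SERPINI1, SYTL2, KBTBD8, SPARCL1 and a transcript known only by a clone name. At 2-fold in all 4 only YAP1 was left (0.00815%).

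**Figure D2:**
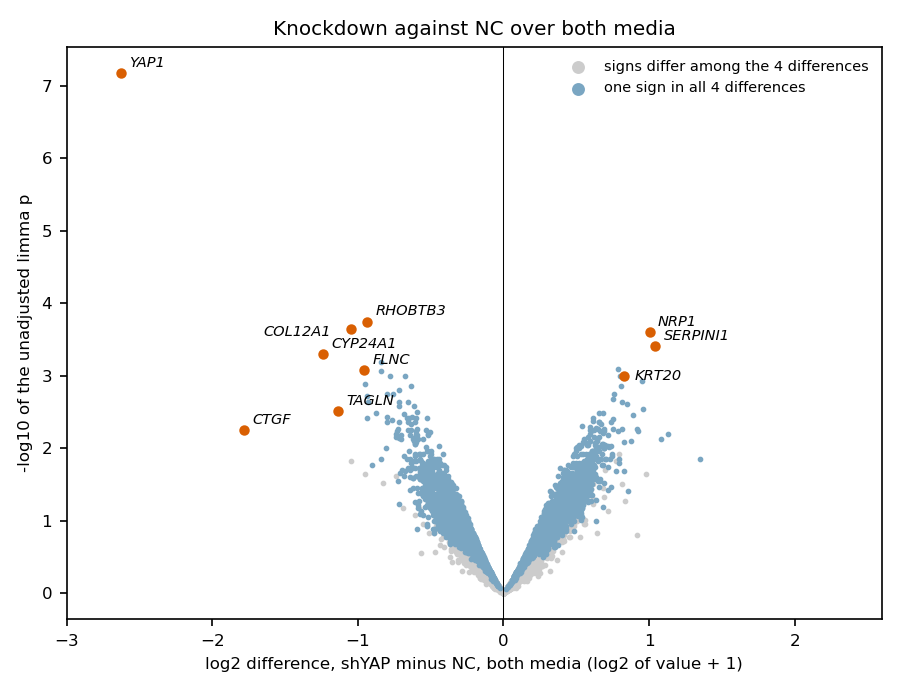
Log2 difference of the knockdown from NC over both media (x axis, log2 of value + 1) against -log10 of the unadjusted limma p (y axis) for the 12263 genes tested, 1 point per gene, blue where all 4 differences share a sign. YAP1, at -2.63, stands apart from all other genes, of which CTGF has the lowest value, -1.78.

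COL12A1, the alpha chain of type XII collagen in the extracellular matrix, had the values 67.6 in NC cells, 37.9 with shYAP1 and 42.3 with shYAP3 in control medium. The deprived libraries held 78.1, 33.4 and 27.0. Every knockdown library lay below both NC libraries, and the log2 difference was -1.05 (SE 0.18, 95% interval -1.45 to -0.64, limma adjusted p = 0.58). RHOBTB3, a protein with BTB domains, read 111.5, 59.4 and 72.5 in control medium for NC, shYAP1 and shYAP3. Its deprived values were 121.4, 53.7 and 57.6. The groups did not overlap, at a log2 difference of -0.93 (SE 0.15). These genes and those below were picked by small p and one sign, which favours separation from NC. The share of all genes without overlap was not counted, so lack of overlap only describes their values.

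FLNC, the actin crosslinker filamin C, read 117.9, 68.5 and 78.0 for NC, shYAP1 and shYAP3 in control medium. After deprivation these were 100.9, 51.4 and 34.7. All 4 knockdown values lay below the lower NC value, and the log2 difference was -0.96 (SE 0.20). CYP24A1, which inactivates vitamin D, read 10.4, 4.58 and 2.635 in control medium and 12.3, 6.56 and 3.88 after deprivation. It too had no overlap between knockdown and NC, at -1.24 (SE 0.24), and shYAP3 lay below shYAP1 in both media.

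The other lower genes with the smallest p in the comparison had not passed the test either. KRT7, a keratin of simple epithelia, read 5.015, 1.91 and 2.00 in control medium and 8.89, 4.995 and 5.545 after deprivation, so that the deprived knockdown libraries lay near NC cells in control medium and below NC cells of their own medium. UNC13D, a priming factor of granule secretion, read 14.8, 7.02 and 9.41, then 16.5, 7.55 and 9.36. IQGAP2, a scaffold of the actin cytoskeleton, read 4.44, 2.56 and 2.32, then 4.79, 1.98 and 2.29. Both of these were lower than NC in every knockdown library without overlap, which their choice by small p and one sign favours. DESI2, a deSUMOylating peptidase, had a log2 difference of -0.68 (SE 0.14). GLI2, a transcription factor of the Hedgehog pathway, had one of -0.95 (SE 0.21), with values of 5.46 and 4.15 in NC cells against 0.832 to 3.33.

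NRP1 had the smallest p of the higher genes with one sign. It encodes neuropilin, a coreceptor for semaphorins and vascular endothelial growth factor. Its values in control medium were 2.2 in NC cells, 6.29 with shYAP1 and 5.86 with shYAP3, and 2.18, 5.52 and 4.16 after deprivation, from 41 to 155 reads a library. The knockdown libraries lay at 190.6% to 285.9% of NC, with a log2 difference of 1.01 (SE 0.17, 95% interval 0.61 to 1.40, limma adjusted p = 0.58). SERPINI1, the serine protease inhibitor neuroserpin, read 2.64, 5.396 and 4.91 in control medium and 3.78, 9.64 and 12.6 after deprivation. It was above NC in all 4, without overlap, at 1.04 (SE 0.19).

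Among the remaining higher genes of smallest p were a differentiation keratin, a hypoxia-inducible enzyme and a Wnt antagonist. KRT20, a keratin of differentiated intestinal epithelium, read 2.95, 6.13 and 4.68 in control medium and 3.78, 7.78 and 9.01 after deprivation. CA9, the membrane carbonic anhydrase IX, read 15.8, 24.99 and 21.7, then 9.95, 21.9 and 22.0. Neither overlapped with NC, and their log2 differences were 0.83 (SE 0.18) and 0.80 (SE 0.17). DKK1, a secreted inhibitor of Wnt signalling, read 114.6, 277.1 and 200.4 in control medium and 548.1, 727.2 and 937.7 after deprivation, above NC of the same medium in all 4 libraries. SYTL2, a Rab effector of vesicle transport, had a log2 difference of 0.95 (SE 0.21), KBTBD8, an adaptor of a cullin ubiquitin ligase, 0.79 (SE 0.16), DNAJB4, a J-domain co-chaperone, 0.76 (SE 0.18), and TEX19, a gene of the germ line, 0.75 (SE 0.18). The transcript with a clone name was near the limit of detection, with 0 in the deprived NC library, 0.396 in the other NC library and 0.755 to 1.545 in the knockdown libraries.

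**Figure D3:**
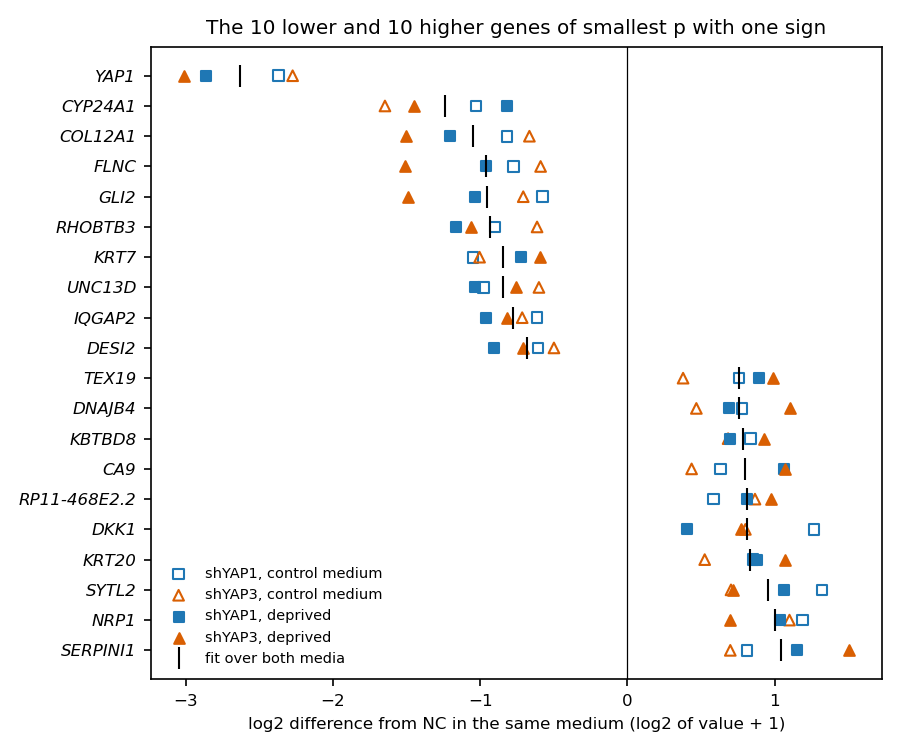
Log2 difference from NC of the same medium (x axis, log2 of value + 1) for the 10 lower and 10 higher genes of smallest limma p with one sign in all 4 differences; open symbols are control medium, filled symbols deprivation, squares shYAP1, triangles shYAP3, and the bar is the fit over both media. YAP1 lies at -2.27 to -3.01, and no difference of any other gene plotted is below -1.65.

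Among the genes around YAP itself the other members of the complex were closer to NC than YAP1. WWTR1, which encodes TAZ, read 52.0, 47.4 and 40.6 in control medium and 74.4, 83.6 and 57.2 after deprivation. The deprived shYAP1 library lay above NC and the other 3 knockdown libraries below it, at a log2 difference of -0.17 (95% interval -0.57 to 0.23). Of the DNA-binding partners, TEAD2, TEAD3 and TEAD4 were below NC in all 4 differences, at -0.25 (SE 0.15), -0.33 (SE 0.15) and -0.40 (SE 0.16). TEAD1 was mixed in sign, at -0.32 (95% interval -0.81 to 0.18). VGLL4, which competes with YAP for TEAD, lay below NC in all 4, at -0.35 (SE 0.14).

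In the Hippo pathway as listed, 17 of 29 tested genes (58.6%) were lower than NC in all 4 differences and 2 (6.90%) were higher, beside 20.8% and 16.4% of all genes, and YAP1 was the only one that passed. The 17 include YAP1, against which the hairpins are directed, and PTPN14, which is also a listed YAP and TEAD target. The median log2 difference was -0.29, against -0.01 over all genes tested. NF2, the upstream activator merlin, read 76.9, 48.9 and 59.3 in control medium and 57.0, 37.7 and 29.6 after deprivation, at -0.63 (SE 0.16). All knockdown values of the same medium lay below NC. PTPN14, a phosphatase that retains YAP in the cytoplasm, had a log2 difference of -0.84 (SE 0.28) and SAV1, the scaffold of the Hippo kinases, one of -0.40 (SE 0.16). WWC1, WWC2, LATS1, FAT1, TAOK2, TNIK, LIMD1, AMOTL1 and MAP4K4 were lower as well, at -0.48 to -0.23, and SIKE1 (0.32) and MOB1A were higher in all 4. Without the deprived NC library WWC1 stood at -0.07, LATS1 at -0.08, LIMD1 at -0.09, WWC2 at -0.13 and SAV1 at -0.17.

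The listed targets of YAP and TEAD lay mostly below NC, but none passed the test. Of 29 listed genes 22 were tested, and 12 of these (54.5%) were lower in all 4 differences and 2 (9.09%) were higher. The list's median log2 difference was -0.48. By library, the control medians were nearer to NC (shYAP1 -0.14, shYAP3 -0.19) than the deprived ones (shYAP1 -0.50, shYAP3 -1.02). Leaving out the deprived shYAP3 library moved the fitted median to -0.37. CTGF was the lowest gene after YAP1. Its values were 0.968 in NC cells, 0.406 with shYAP1 and 0.591 with shYAP3 in control medium, only 10 to 22 reads, and 60.5, 7.26 and 4.71 after deprivation. The deprived knockdown libraries held 12% and 7.79% of the NC level, and the fit over both media gave -1.78 (SE 0.49, 95% interval -2.89 to -0.66, limma adjusted p = 0.58).

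CYR61 stood at 5.06, 4.87 and 4.41 in control medium for NC, shYAP1 and shYAP3, and at 326.2, 159.8 and 102 after deprivation. In control medium the lines were close together, and after deprivation knockdown cells held 49.0% and 31.3% of NC, at a log2 difference of -0.73 over both media (SE 0.28). LATS2, both a target and a kinase that restrains YAP, read 9.41, 6.045 and 6.95, then 26.6, 10.3 and 8.66. It was below NC in all 4 differences, at -0.94 (SE 0.22). AMOTL2, a junctional protein that also restrains YAP, read 18.5, 16.2 and 23.6 in control medium, with shYAP3 above NC, and 157.8, 72.2 and 44.7 after deprivation.

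AXL, a receptor tyrosine kinase, read 41.7, 28.2 and 31.2 in control medium and 95.6, 66.0 and 44.6 after deprivation, at a log2 difference of -0.64 (SE 0.18). ARHGEF17, a guanine nucleotide exchange factor, read 25.1, 14.0 and 19.5, then 20.2, 9.64 and 9.08, at -0.80 (SE 0.19). Both were below NC of the same medium in all 4 libraries. AJUBA, a LIM protein that inhibits LATS, was close to NC in control medium (33.1, 30.4 and 31.4) and lay at 46.8, 19.7 and 24.4 after deprivation. ANKRD1, a target known from muscle and epithelium, did not reach the filter, with 0.220, 0.0406 and 0.136 in control medium and 1.54, 0.116 and 0.901 after deprivation, from 1 to 29 reads.

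Proposed targets in growth control were nearer to NC. AREG and EREG, ligands of the EGF receptor, had log2 differences of -0.18 (95% interval -0.57 to 0.21) and -0.19 (95% interval -0.54 to 0.17). BIRC5, the apoptosis inhibitor survivin, had one of -0.01 (95% interval -0.32 to 0.30), and MYC one of -0.18 (95% interval -0.59 to 0.23). Each of these 4 genes had mixed signs among the 4 differences. The higher members of the target list were IGFBP3, at 2.33, 7.34 and 2.95 in control medium, then 1.12, 3.31 and 1.32 after deprivation, and SH2D4A.

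Receptors and markers of the epithelium lay on both sides of NC. In the EGF family 2 of 13 tested genes (15.4%) were lower and 0 higher in all 4 differences, and 1 of them was ERBB2, a receptor of the family, at 73.6, 55.1 and 56.2 in control medium and 54.6, 41.5 and 30.9 without glucose. Of 15 genes of colon epithelial identity 3 (20%) were lower and 1 (6.67%) higher. As deposited, neither list exceeded the shares of all genes, 20.8% lower and 16.4% higher. With length and GC trends removed 4 of the 13 EGF family genes (30.8%) were lower, beside 20.3% of all genes. After quantile normalization 4 of the 15 colon genes (26.7%) were lower, beside 20.6%. KRT18, a keratin of simple epithelia, had a log2 difference of -0.55 (SE 0.20). HNF4A, a transcription factor of gut epithelium, had one of -0.30 (SE 0.17), while KRT20 was the higher one of the colon genes. Among Wnt targets 5 of 15 (33.3%) were lower, with SOX4 at -0.39 (SE 0.16), CCND1 at -0.38 (SE 0.19) and AXIN2 at -0.29, and DKK1 was the 1 higher member (6.67%). With trends on transcript length and GC content removed 3 Wnt targets were lower and 2 higher, and the list's median went from -0.18 to -0.03.

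**Figure D4:**
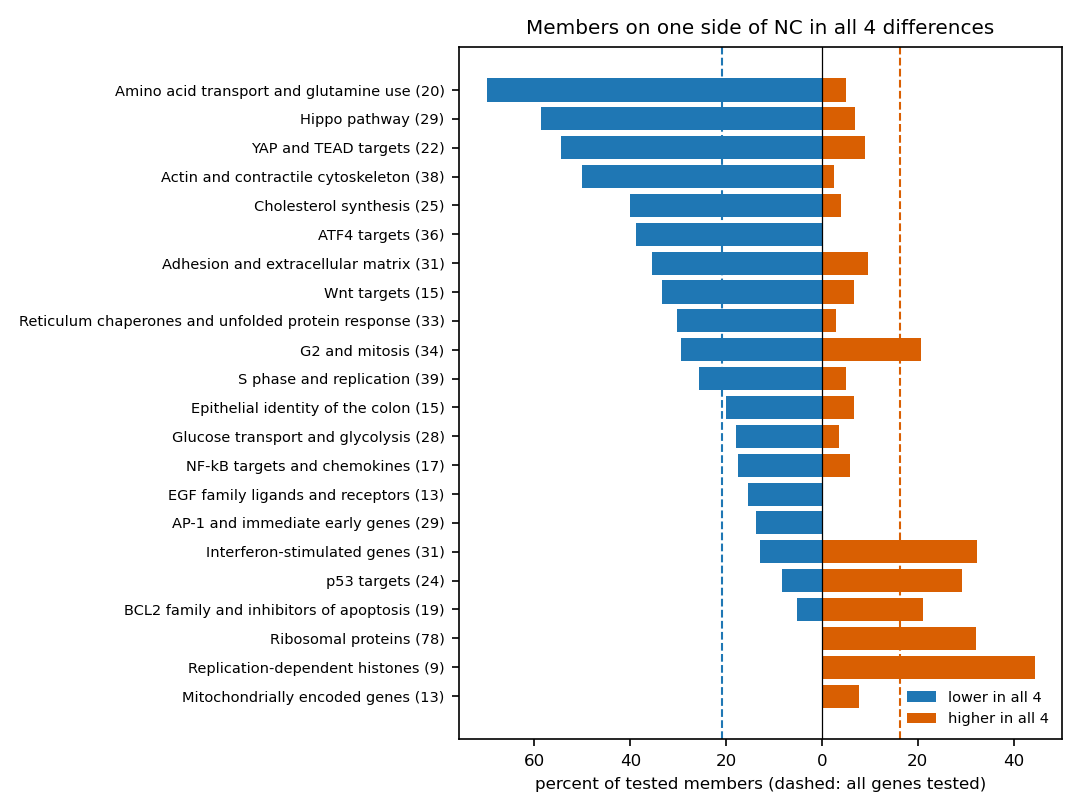
Percent of the tested members of each gene list that lay below NC (blue, to the left) or above NC (orange, to the right) in all 4 differences, with the number of tested members in brackets; dashed lines mark the same shares over all genes tested, 20.8% and 16.4%. Amino acid transport, the Hippo pathway and the YAP and TEAD targets reach 70.0%, 58.6% and 54.5% below NC. The Hippo pathway list includes YAP1 itself.

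Contractile and actin genes had 19 lower members against 1 higher. Of 38 tested genes these 19 (50%) were lower in all 4 differences, beside 20.8% of all genes. The 1 higher member (2.63%, beside 16.4%) was the tropomyosin TPM4, and none passed over both media. TAGLN, the actin-binding protein transgelin, read 13.4, 3.65 and 8.59 in control medium and 46.4, 15.9 and 25.4 after deprivation. It was lowest with shYAP1 in both media, at -1.13 over both hairpins (SE 0.29). MYL9, the regulatory light chain of myosin, read 51.7, 27.0 and 39.7, then 109.1, 56.6 and 61.4, at -0.76 (SE 0.18). FLNA, MYH9 and ACTB, encoding filamin A, non-muscle myosin and beta-actin, had log2 differences of -0.60, -0.63 and -0.38. The list's median was -0.27, and it was -0.15 both with trends on transcript length and GC content removed and without the deprived shYAP3 library. The lower members were 21 (55.3%) with the trends removed, beside 20.3% of all genes. Without that library 20 (52.6%) were lower in the remaining 3 differences, beside 24.1%.

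In adhesion and extracellular matrix, 11 of 31 tested genes (35.5%) were lower and 3 (9.68%) higher in all 4 differences. FN1, encoding fibronectin, read 18.9, 13.9 and 13.6 in control medium and 23.7, 16.4 and 8.25 after deprivation, at a log2 difference of -0.69 (SE 0.25). THBS1, the matricellular protein thrombospondin, had one sign only after deprivation, where it read 204.5, 63.3 and 43.5 against 5.10, 3.77 and 5.32 in control medium. LAMA3, a laminin chain of epithelial basement membranes, was among the higher ones, at 7.74, 9.21 and 13.6, then 14.7, 20.8 and 22.5. The integrin chains split, with ITGA3, ITGB5 and ITGA6 lower (-0.49, -0.38 and -0.20) and ITGA2 (0.48) and ITGB1 higher. The list's median of -0.22 was -0.11 with the length and GC trends removed and -0.06 without the deprived shYAP3 library.

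Amino acid transport and glutamine use had the largest share below NC of the lists plotted. Of 20 tested genes 14 (70.0%) were lower and 1 was higher in all 4 differences, with a median of -0.25. SLC7A5, the light chain of the large neutral amino acid transporter, read 566.7, 414.7 and 403.8 in control medium and 913.2, 589.3 and 383.0 after deprivation, at -0.70 (SE 0.20). SLC7A1, a carrier of cationic amino acids, read 167.3, 144.0 and 138.9, then 358.5, 237.5 and 181.1. Both lay below NC of the same medium in all 4 libraries. SLC1A3, a glutamate carrier, had a log2 difference of -0.46 (SE 0.16). Several of these genes are also ATF4 targets, of which 14 of 36 (38.9%) were lower and 0 higher. With length and GC trends removed 10 ATF4 targets (27.8%) and 12 of the 20 amino acid genes (60%) were lower, beside 20.3% of all genes. After quantile normalization 17 ATF4 targets (47.2%) were lower, beside 20.6%. In cholesterol synthesis 10 of 25 (40%) were lower and 1 (4%) was higher, among the lower LSS, an enzyme of the pathway, at -0.41 (SE 0.13). In glucose transport and glycolysis 5 of 28 (17.9%) were lower and 1 (3.57%) higher, and SLC2A1, the glucose transporter of most dividing cells, had a log2 difference of -0.44 (SE 0.17).

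Cell cycle genes lay on both sides. In G2 and mitosis 10 of 34 tested genes (29.4%) were lower and 7 (20.6%) higher in all 4 differences, and with values scaled to equal library totals the counts were 5 and 5. TTK, the spindle checkpoint kinase, read 40.7, 81.8 and 72.4 in control medium and 69.3, 93.2 and 176.5 after deprivation, above NC in all 4, at 0.89 (SE 0.23). CDK1 and the kinetochore gene NUF2 were above NC in all 4, at 0.48 (SE 0.22) and 0.56 (SE 0.24), and the deprived shYAP3 library had the widest gap of the 4 for both (1.07 and 1.09). FOXM1, a transcription factor of mitotic genes, was lower, at -0.46 (SE 0.20). In S phase and replication 10 of 39 (25.6%) were lower and 2 (5.13%) higher. E2F1 and TYMS, encoding thymidylate synthase, had log2 differences of -0.45 (SE 0.15) and -0.32 (SE 0.14), and CCNE2, a cyclin of S phase entry, one of 0.57 (SE 0.21).

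As deposited, ribosomal protein genes had members above NC and none below it in all 4 differences. Of 78 tested genes 25 (32.1%) were higher and 0 lower, with a median of 0.35. The higher count was 49 after quantile normalization, 45 with equal library totals and 18 of 77 with length and GC trends removed. After quantile normalization 2 members were lower, as were 2 with the trends removed. In control medium the list's median was 0.12 for shYAP1 and -0.04 for shYAP3. RPL26 read 859.2, 1045 and 875.2 in control medium and 1245, 1855 and 3060 after deprivation. The deprived shYAP3 library was the highest, and without it the list's median was 0.19.

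Transcript length and GC content moved with the differences. After deprivation the shYAP3 library had a median log2 difference from NC of 0.49 in the shortest of 10 equal groups of genes and of -0.33 in the longest, against 0.22 and -0.13 for shYAP1. In control medium the same groups stood at 0.04 and 0.00 for shYAP1 and at -0.01 and -0.02 for shYAP3. By GC content the lowest of 10 groups lay at 0.26, 0.20 and 0.47 for shYAP1 control, shYAP3 control and shYAP3 deprived and the highest at -0.12, -0.14 and -0.19, while the deprived shYAP1 library ran from -0.00 to 0.11. With both trends removed YAP1 stayed at -2.61 (limma adjusted p = 7.6e-05) and remained the only call, the YAP and TEAD targets had 10 lower and 1 higher of 22 with a median of -0.40, and the Hippo pathway had 17 lower and 0 higher of 29 with a median of -0.22.

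**Figure D5:**
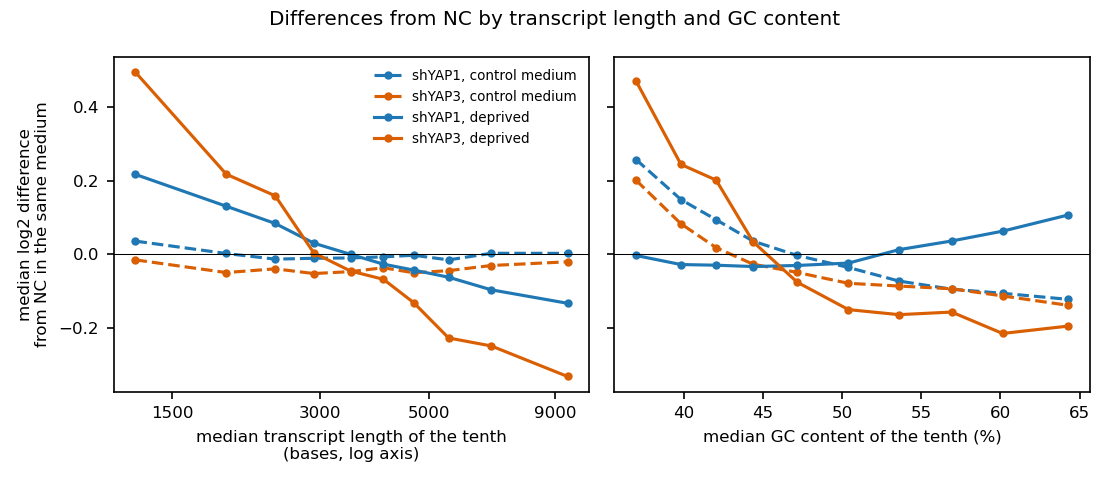
Median log2 difference from NC of the same medium (y axis) in 10 equal groups of the 12107 tested genes with a known transcript, by transcript length in bases (left, log axis) and by GC content in percent (right); lines join the groups of 1 knockdown library each. The deprived shYAP3 library has the steepest slope on length, from 0.49 to -0.33.

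Fitted by hairpin, each line gave 2 lower calls (0.0163%) and 0 higher calls (0%). For shYAP1 these were YAP1 and TAGLN (-1.56, SE 0.19, limma adjusted p = 0.022), and for shYAP3 YAP1 and CYP24A1 (-1.55, SE 0.19, limma adjusted p = 0.023). The calls on TAGLN and CYP24A1 with 1 hairpin each do not show that the hairpins differ. TAGLN was higher with shYAP3 than with shYAP1 by 0.84 (limma adjusted p = 0.46) and CYP24A1 was lower by 0.63 (limma adjusted p = 0.68), and no gene passed the test of shYAP3 against shYAP1, with 341 higher (2.78%) and 502 lower (4.09%) at an unadjusted p under 0.05. At that level shYAP1 had 237 higher (1.93%) and 213 lower genes (1.74%) against NC, and shYAP3 had 1163 (9.48%) and 1106 (9.02%). Leaving out 1 library keeps 1 residual degree of freedom in this model and moved the adjusted calls widely, to between 2 and 228 higher and 2 and 156 lower for shYAP1, and to between 14 and 2701 higher and 5 and 2452 lower for shYAP3. The highest counts for shYAP3 came without its control library, and the highest for shYAP1 without a shYAP3 library.

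The medium was a term in the fit and not the question, but several differences were of another size in each medium. In control medium alone no gene passed, and after deprivation YAP1 did (-2.94, limma adjusted p = 0.025). CTGF had the largest contrast between the media among the genes given here, -2.77 on the log2(value + 1) scale at an unadjusted limma p of 0.00029 and an adjusted p of 1, and its control values rest on at most 22 reads. CYR61, AMOTL2, LATS2, AJUBA, PTPN14 and THBS1 also lay further below NC after deprivation, by -1.24, -1.53, -0.92, -0.96, -1.21 and -1.79. Such differences enter the standard error of the fit over both media, 0.49 for CTGF and 0.35 for THBS1 beside a median of 0.17. No gene passed the test of this contrast, with 38 higher (0.31%) and 73 lower (0.595%) at an unadjusted limma p under 0.05. For COL12A1, RHOBTB3 and FLNC it was -0.61, -0.36 and -0.55, and for NRP1 and KRT20 -0.28 and 0.28.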

How the data were processed

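Polyadenylated RNA was selected with oligo-dT beads and fragmented at random before library synthesis, per the labels' protocols. Bowtie2, BWA and hg19 are named in the submitters' processing notes, with no role or version. The sources used here give no counter, annotation or strand setting, so overlapping or antisense genes could not be separated. The authors deposited 1 signal per gene and library, and their scaling is not stated. Divided by the worth of 1 read, all values (100% in each library) came out whole, within 0.01 read. Every listed gene has reads in the control NC library, and a value of 0 allows up to 3 reads (0.122 to 0.208), counting error only.

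The main test was limma 3.58.1 in R 4.3.3, fitted to log2(value + 1) with a trend of variance on level, genotype plus medium, 3 residual degrees of freedom, Benjamini-Hochberg over 12263 genes, called at 0.05. The design named this test for normalized values and a count test of edgeR for raw counts, and the deposited values are scaled. Fold changes on this scale understate those of low genes. NC libraries have no replicate in a medium. The median standard error was 0.17. Hairpins were fitted as line plus medium, media as 1 mean per genotype and medium. Alternatives were edgeR 4.0.16 and DESeq2 1.42.0 on recovered reads, a pseudocount of 0.1, no filter, quantile scaling, scaling to equal library totals, no trend, the hairpin line as a block, the mean of the contrasts within media, length and GC trends removed (loess, span 0.3), and leaving out each library. Scripts were tested on simulated data.

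The genes, 25 lists (693 genes, 645 listed in the table) and tests were chosen with earlier results of these data known. Named genes were a panel of 18 around YAP, the 10 lower and 10 higher genes of smallest p with one sign (as fewer than 5 passed in each direction), up to 4 members per list of smallest p, and genes called with both hairpins. Other list members, and other genes where a count was small, were chosen after their values were seen, and not every gene taken by the rule is reported. Length and GC content, of GENCODE v29 on GRCh38, were known for 12107 tested genes (98.7%). For line numbers shared across media, the shYAP1 deviations from the knockdown mean in both media correlated at 0.10 over genes.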

Additional observations from a re-analysis of the deposited data

How the results depend on the processing

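DESeq2 gave 2 higher and 5 lower calls over both media against 0 and 1 with limma, all of one sign in the 4 differences. Leaving out each library gave 0 to 1 higher and 0 to 4 lower calls, the 0 without the deprived NC library and the 4 without the deprived shYAP3 library. YAP1 ranged from -2.94 to -2.32 in these fits, the latter not called (limma adjusted p = 0.13), and under the other alternatives it stayed called, with a limma adjusted p of at most 0.01. With the line as a replicate block YAP1 was at -2.63 (limma adjusted p = 0.00077) with 1 lower and 0 higher calls, and the block changed no other call. Calls by hairpin ran from 2 to 228 higher and 2 to 156 lower for shYAP1, from 14 to 2701 higher and 5 to 2452 lower for shYAP3, and from 0 to 2028 higher and 1 to 1788 lower for shYAP3 against shYAP1 when 1 library was left out, with 1 residual degree of freedom. Leaving out each library moved TEAD1 from -0.65 to 0.013, AMOTL2 from -1.46 to 0.076 and MYC from -0.47 to 0.12, each above 0 only without the deprived NC library. BIRC5 ran from -0.089 to 0.065, and was above 0 without the control NC library or either shYAP1 library. No other gene followed through the alternatives changed sign, but some genes named in the text, MT-ND3 among them, were not followed. With length and GC trends removed all 13 mitochondrially encoded genes, MT-ND3 included, lay below NC in the fit. Named genes other than YAP1 passed the test in DESeq2 (RHOBTB3, COL12A1, CYP24A1, FLNC, NRP1 and SERPINI1) and without the deprived shYAP3 library (RHOBTB3, COL12A1, FLNC and NRP1). The cause of these changes was not tested. The fits within a medium and their contrast were not repeated with a library left out. CTGF in control medium rests on 10 to 22 reads a library, and depth limits its values there.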

Other observations

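Interferon-stimulated genes had 10 of 31 tested members (32.3%) above NC and 4 (12.9%) below it in all 4 differences. The shares of all genes were 16.4% and 20.8%, and no member passed the test. The list's median was -0.0037 for shYAP1 and 0.22 for shYAP3. With equal library totals 7 of 32 (21.9%) were above, beside 14.7% of all genes. With length and GC trends removed 12 of 31 (38.7%) were above, beside 14.9%. OASL, a member of the oligoadenylate synthetase family, read 1.67, 2.11 and 2.68 for NC, shYAP1 and shYAP3 in control medium, then 3.03, 8.02 and 11.8 after deprivation. ISG15, a ubiquitin-like modifier, read 60.5, 67.3 and 70.5, then 100.6, 213.7 and 215.6. Both lay above NC of the same medium in every knockdown library, with the wider gap after deprivation, and the contrast between media did not pass for either (limma adjusted p = 1). DTX3L, a ubiquitin ligase, was among the lower ones at -0.54 (SE 0.21). Of p53 targets 7 of 24 (29.2%) were higher and 2 (8.33%) lower, and 4 were higher with length and GC trends removed. FAS, a death receptor, read 6.99, 10.6 and 10.8 in control medium and 11.2, 15.8 and 17.2 after deprivation, at 0.54 (SE 0.15). BTG2, an antiproliferative gene, had a log2 difference of 0.44 (SE 0.15), and PMAIP1, the BH3-only protein NOXA, one of 0.39 (SE 0.17).

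Replication-dependent histones had 4 of 9 tested members (44.4%) above NC and 0 below, beside 16.4% and 20.8% of all genes. With length and GC trends removed 2 of 8 (25%) were above. The libraries hold RNA selected with oligo-dT beads, so histone RNA without a poly(A) tail is largely missed and these values cover only polyadenylated forms. HIST1H2AC read 3.17, 4.58 and 5.22 in control medium and 2.82, 5.23 and 5.48 after deprivation. Immediate early and AP-1 genes had 4 of 29 (13.8%) below NC and 0 above, with a median of 0.09 for shYAP1 and -0.34 for shYAP3. With equal library totals 7 of these (24.1%) were below, and without the deprived shYAP3 library 4 were below and 2 above, with a shYAP3 median of -0.15. Chaperones and sensors of the reticulum had 10 of 33 (30.3%) lower and 1 (3.03%), the sensor ATF6, higher, and 15 lower after quantile normalization. NF-kB targets had 3 of 17 (17.6%) lower and 1 (5.88%) higher, the chemokine IL8. The BCL2 family had 1 of 19 (5.26%) lower and 4 (21.1%) higher, beside 20.8% and 16.4% of all genes. Of 13 mitochondrially encoded genes 1, MT-ND3, was higher and 0 lower, against 0 and 8 with the length and GC trends removed.

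SPARC, a matricellular protein that binds collagen, did not reach the filter and was not tested. It was listed at 1.19 in control medium and 0.905 after deprivation in NC cells, from 27 and 17 reads. The values were 0.162 with shYAP1 and 0.273 with shYAP3 in control medium, then 0.174 and 0.277 after deprivation, from 3 to 6 reads each. It was chosen after its values were seen.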
